A study of Mus musculus with 24 samples.

Results

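A set of 10 genes that carry the insulin signal from the cell surface to glucose transport and to gene transcription was followed in mouse heart. They were found by their symbols in the annotation table, which held all 10, of 20961 listed genes. All 10 passed the filter on low counts that left 17203 genes for testing. They are the receptors Insr and Igf1r, the docking proteins Irs1 and Irs2, the regulatory PI3-kinase subunit Pik3r1, the kinases Akt1 and Akt2, the transcription factors Foxo1 and Foxo3, and Tbc1d4.

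Insulin binds its receptor, a tyrosine kinase that phosphorylates insulin receptor substrates. These recruit PI3-kinase, whose lipid product brings AKT kinases to the membrane, where they are activated. AKT phosphorylates TBC1D4, which releases GLUT4 vesicles to the surface of muscle cells, and FOXO factors, which then leave the nucleus. Irs2 is itself known as a gene that FOXO factors induce when insulin is low.

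Polyadenylated RNA was sequenced from hearts of untreated wild-type mice, male and female, of 3 inbred strains, in a study of how genotype and diet interact in mouse models of type 2 diabetes. The strains were C57BL/6J, widely used in laboratories, CAST/EiJ, whose founders were wild castaneus mice, and NZO/HlLtJ, in which many loci together bring obesity and diabetes. From week 6 of age the mice ate food labelled 10% fat (the control) or 44% fat (high in fat and sugar), each with fiber, and hearts were taken at week 15. There were 24 libraries, 2 for each of the 12 combinations, so that a strain difference compared 8 libraries with 8 and a diet effect within a strain 4 with 4. Nothing in the labels says whether a pair of libraries stands for a pair of mice, so a p-value here measures only how far these libraries spread, which may be partly technical.

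Total counts per library lay between 30205073 and 52254058, and the 10 genes had between 280 and 12012 counts in a library. Levels are given in CPM, counts per 1e+06 counts of the library after TMM scaling. Xist ran from 312 to 509 CPM in female libraries and from 0.19 to 2.23 CPM in male libraries. The 10 cardiomyocyte markers checked, Myh6 and Tnnt2 among them, summed to between 63900 and 79700 CPM in every library, as the label heart requires. The 10 fibroblast markers summed to 2100 to 2400 CPM in C57BL/6J, 1750 to 2140 CPM in CAST/EiJ and 2860 to 3610 CPM in NZO/HlLtJ. The 8 measured skeletal muscle markers summed to 1330 to 1740, 1310 to 1600 and 2560 to 4820 CPM in the same order, of which Ckm (1080 to 1730 CPM over all libraries) and Acta1 (93.7 to 3430 CPM), both also known in heart, made up nearly all. The other 6, the defining Myh4 and Tnnt3 among them, did not exceed 1.23 CPM. Smooth muscle and pericyte markers summed to 1350 to 1560, 1190 to 1370 and 1080 to 1230 CPM and erythroid markers to 2920 to 8820, 4350 to 22000 and 4540 to 25800 CPM. The share of counts from mitochondrially encoded genes was 25.8% to 28.8% in C57BL/6J, 20.2% to 23.4% in CAST/EiJ and 20.9% to 23.9% in NZO/HlLtJ. The part of these marker lists in the strain differences below was not tested. In these bulk samples, fewer cells of a type and less RNA per cell cannot be told apart. The numbers of the sample identifiers fall into 3 ranges, which the labels do not call batches: the first held 8 libraries of C57BL/6J and CAST/EiJ, 1 per group, and all NZO/HlLtJ libraries fell in the later 2. With 1 library per group, any p-value within the first range rests on libraries of different sex or diet standing in for replicates.

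Per kilobase of exon, the level was highest for Akt1 at 33.9 ± 4.01 CPM per kilobase (SD, n = 24). It was followed by Akt2 at 23.8 ± 3.22, Pik3r1 at 20.5 ± 3.15 and Foxo3 at 17.3 ± 2.54 CPM per kilobase. Insr (15.6 ± 2.04) and Tbc1d4 (15.5 ± 3.58) were next, and these neighbours overlapped in their ranges over the pooled libraries. Within each strain, however, all Akt1 values lay above all Akt2 values. Irs1 stood at 7.24 ± 3.73, Foxo1 at 3.78 ± 0.644, Irs2 at 2.98 ± 2.75 and Igf1r at 2.68 ± 0.244 CPM per kilobase. The order of these means over 24 libraries was not that of each strain. Tbc1d4 ranked 3 in C57BL/6J, at 19.9 CPM per kilobase, and 6 in the other strains, at 12 in CAST/EiJ and 14.5 in NZO/HlLtJ. Pik3r1 stood above Akt2 in NZO/HlLtJ alone, at 21.1 against 19.7 CPM per kilobase, where their ranges overlapped. Irs2 ranked 8 in CAST/EiJ by its mean and 10 in the other strains. Its CAST/EiJ median, 2.5 CPM per kilobase, lay below those of Foxo1 (3.31) and Igf1r (2.59). Over all 24 libraries its median (2.18) likewise lay below that of Igf1r (2.67). Insr was thus above Igf1r in each library, at no less than 11.8 against no more than 3.16 CPM per kilobase. Irs2 and Irs1 spread widest over the 24 libraries for their level, from 1.18 to 13.2 and from 3.77 to 16.2 CPM per kilobase.

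The strains differed in several of the genes, as the plot of all 10 by library shows. Of the 10 genes, 5 differed between CAST/EiJ and C57BL/6J (2 higher, 3 lower in CAST/EiJ), 5 between NZO/HlLtJ and C57BL/6J (all lower in NZO/HlLtJ) and 7 between NZO/HlLtJ and CAST/EiJ (3 higher, 4 lower in NZO/HlLtJ), at a Benjamini-Hochberg adjusted p under 0.05 in edgeR's quasi-likelihood test, the source of each adjusted p below unless another tool is named. Of all genes tested, 58.8%, 35.5% and 60.3% were called in these 3 comparisons, so that the insulin genes stood near the background where CAST/EiJ was compared and above it in NZO/HlLtJ against C57BL/6J, with 10 genes too few to call that particular to them. By direction, the background was 29.1% higher and 29.7% lower in CAST/EiJ than in C57BL/6J, 17.9% higher and 17.6% lower for NZO/HlLtJ against C57BL/6J, and 30.5% higher and 29.8% lower in NZO/HlLtJ than in CAST/EiJ. The median absolute log2 difference of the 10 was 0.18, 0.25 and 0.28, against 0.31, 0.18 and 0.31 over all genes. The comparisons share libraries and are not independent of each other. The reference sequence is that of C57BL/6J, and the aligner is not given in the sources used here. Whether reads of the other strains were counted less often for differing from it was not tested. The alternative fits named below start from the same counts and cannot decide it.

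**Figure D1:**
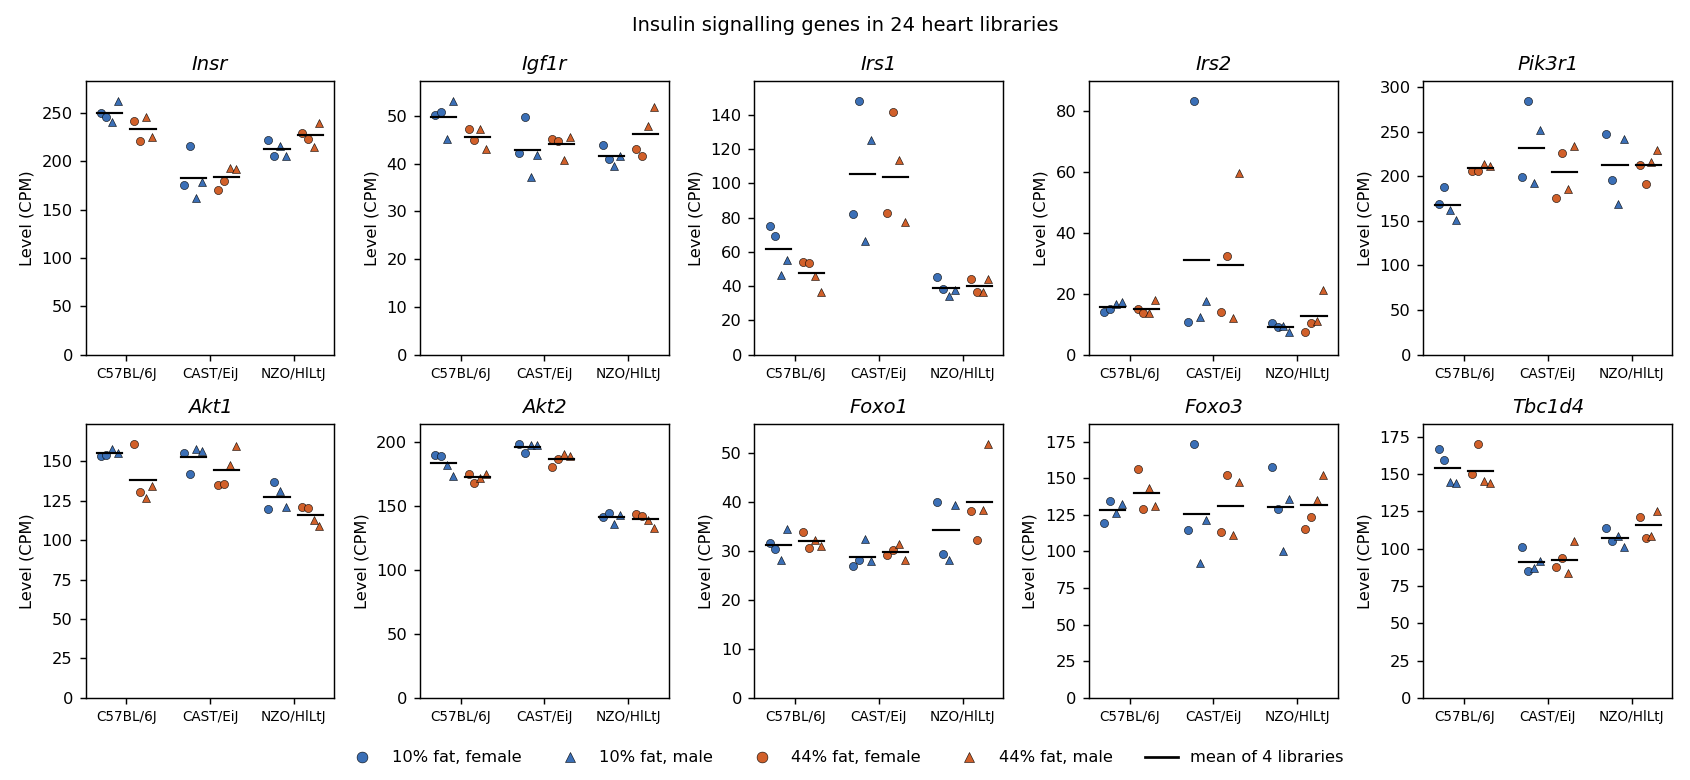
Levels of the 10 insulin signalling genes in CPM (vertical axes, linear, starting at 0) in the 24 libraries, by strain, with diet as colour, sex as symbol and a bar at the mean of the 4 libraries of a strain and diet. Tbc1d4 and Insr sit lower in all CAST/EiJ libraries than in any C57BL/6J library, Akt2 lower in all NZO/HlLtJ libraries than in any other, and Irs2 lies between 32.4 and 83.3 CPM in 3 CAST/EiJ libraries and at or below 21.3 CPM in the rest.

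Insr (ENSMUSG00000005534, GRCm38 chromosome 8, 3122061 to 3279617, minus strand), the insulin receptor, ran from 221 to 262 CPM in C57BL/6J with a median of 243, from 162 to 216 CPM in CAST/EiJ with a median of 179, and from 205 to 239 CPM in NZO/HlLtJ with a median of 219. Every CAST/EiJ library lay below every C57BL/6J library, while NZO/HlLtJ had its median between them and overlapped both. The log2 difference was -0.40 in CAST/EiJ against C57BL/6J (SE 0.04, adjusted p = 2.67e-07) and 0.26 in NZO/HlLtJ against CAST/EiJ (SE 0.04, adjusted p = 4.51e-05). These calls were kept without each library in turn and within the identifier ranges tested. Against C57BL/6J, NZO/HlLtJ differed by -0.14 (SE 0.04, adjusted p = 0.0201). That call was lost without any 1 of 4 libraries (the first C57BL/6J females or males at 44% fat, the second C57BL/6J males at 10% fat, or the second NZO/HlLtJ females at 10% fat; adjusted p 0.0501 to 0.0543), and the difference was -0.12 in the later identifier ranges (adjusted p = 0.116) and -0.043 among the 44% fat libraries (adjusted p = 0.685). Groups of libraries did not overlap for 2 of the 10 genes in CAST/EiJ against C57BL/6J (Insr and Tbc1d4), for 2 in NZO/HlLtJ against C57BL/6J (Akt2 and Tbc1d4) and for 2 in NZO/HlLtJ against CAST/EiJ (Irs1 and Akt2). The share of all tested genes without overlap was 27%, 12.2% and 26.8%.

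Igf1r (ENSMUSG00000005533, chromosome 7, 67952827 to 68233668, plus strand), the receptor for insulin-like growth factor 1, differed little between strains. Its means were 47.8 ± 3.37 CPM in C57BL/6J, 43.4 ± 3.74 in CAST/EiJ and 43.8 ± 4.07 in NZO/HlLtJ (SD, n = 8 each), with overlap between all strains. CAST/EiJ was lower than C57BL/6J by -0.14 (SE 0.05, adjusted p = 0.0149) and NZO/HlLtJ by -0.13 (SE 0.05, adjusted p = 0.0378), and the last 2 strains differed by 0.011 (95% interval -0.09 to 0.11). The first call was lost without the second C57BL/6J males at 10% fat (-0.11, adjusted p = 0.0531), in the later identifier ranges (-0.08, adjusted p = 0.304) and among the 44% fat libraries (-0.05, adjusted p = 0.554). The second was lost without any 1 of 10 libraries, namely both C57BL/6J females at 10% fat, the second males at 10% fat, the first females and first males at 44% fat of that strain, and of NZO/HlLtJ the second females and first males at 10% fat, both females and the first males at 44% fat (-0.13 to -0.10, adjusted p 0.0502 to 0.115). Among the 44% fat libraries NZO/HlLtJ and C57BL/6J differed by 0.0095 (adjusted p = 0.947), against -0.26 among those at 10% fat (adjusted p = 0.00615), and in the later ranges by -0.13 (adjusted p = 0.0757).

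**Figure D2:**
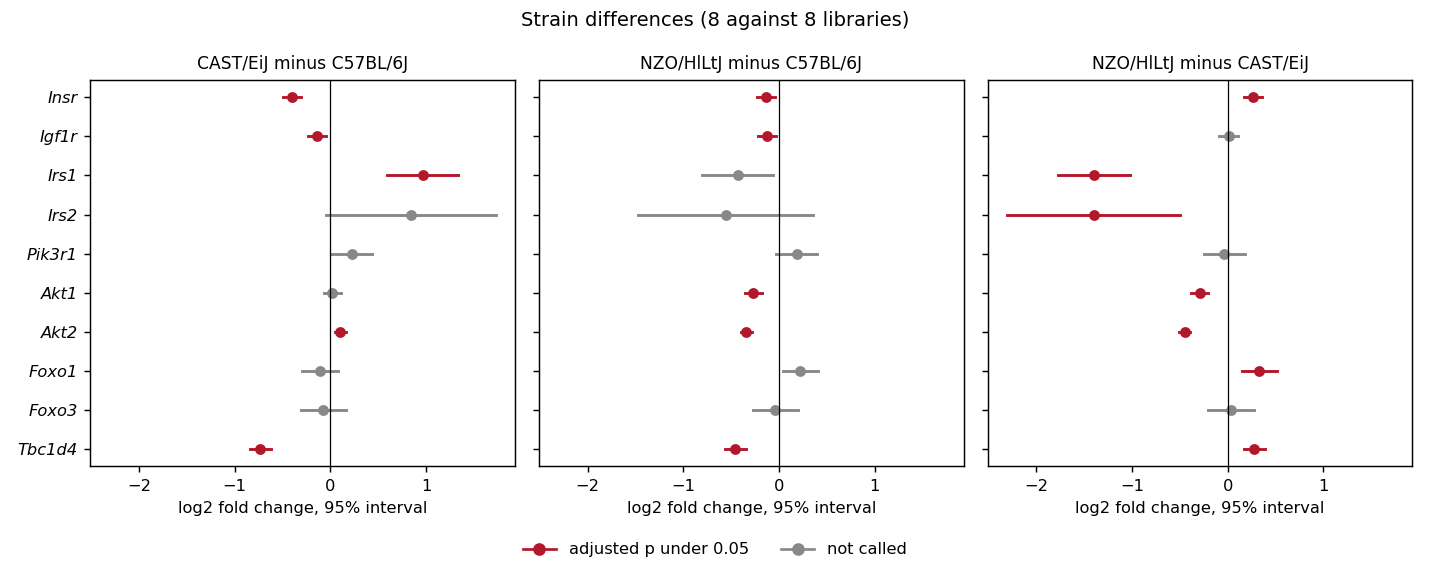
Log2 fold change (points) and its 95% interval (lines) of each gene between strains, 8 libraries against 8, with the genes called at an adjusted p under 0.05 in red. Tbc1d4 lies at -0.73 and -0.46 against C57BL/6J in CAST/EiJ and NZO/HlLtJ, Akt2 at 0.10 and -0.34, and the intervals of Irs2 are the widest in each panel.

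The sequences before the start sites of Irs1 and Irs2 are shown because both genes had their highest levels in CAST/EiJ libraries and both carry the core of the insulin response element. They are the 250 bases before the RefSeq start on GRCm38.p6, chr1:82291440-82291689 for Irs1 and chr8:11008930-11009179 for Irs2, read 5′ to 3′ on the minus strand, the strand of both genes. The RefSeq start of each lies upstream of the GENCODE one, whose coordinates are given with the levels. Capitals mark the core CAAAACA where it lies on the opposite strand, so that it reads TGTTTTG.
Irs1: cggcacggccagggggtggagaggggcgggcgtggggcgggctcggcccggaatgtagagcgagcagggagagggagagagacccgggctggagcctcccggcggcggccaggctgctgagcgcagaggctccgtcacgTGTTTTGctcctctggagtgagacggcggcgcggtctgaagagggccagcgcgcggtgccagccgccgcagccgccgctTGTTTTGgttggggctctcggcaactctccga
Irs2: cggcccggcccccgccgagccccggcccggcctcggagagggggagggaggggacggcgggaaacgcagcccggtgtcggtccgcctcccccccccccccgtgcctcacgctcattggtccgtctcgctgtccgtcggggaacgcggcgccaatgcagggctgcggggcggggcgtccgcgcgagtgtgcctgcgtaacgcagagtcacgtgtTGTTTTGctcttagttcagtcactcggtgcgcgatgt
Counted from the start site, the core lay at -111 to -105 and at -32 to -26 before Irs1 and at -37 to -31 before Irs2. On either strand, 6.28% of 32851 mouse windows from 250 bases before to 50 after a start held it. The 9 insulin genes with an entry had 14 windows, of which 2 held CAAAACA and 1, that of Akt1 at -161 to -155, held the FOXO core GTAAACA, found in 3.65% of all windows. Pik3r1, Akt2 and Foxo3 also had their highest library in CAST/EiJ, and their windows held no CAAAACA. A match describes letters of the reference sequence, which is C57BL/6J, and is neither a site nor a cause.

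In CAST/EiJ the docking proteins spread widest between libraries for their level. Irs1 (ENSMUSG00000055980, chromosome 1, 82233101 to 82291416, minus strand), which recruits PI3-kinase to the receptor, ran from 66.4 to 148 CPM in CAST/EiJ with a median of 98, from 36.7 to 74.8 CPM in C57BL/6J with a median of 53.8, and from 34.4 to 45.3 CPM in NZO/HlLtJ with a median of 37.9. All CAST/EiJ libraries lay above all NZO/HlLtJ libraries, and CAST/EiJ overlapped C57BL/6J only in that its lowest library, a male at 10% fat, lay below both C57BL/6J females at 10% fat (74.8 and 69.3 CPM). CAST/EiJ was higher than C57BL/6J by 0.96 (SE 0.17, adjusted p = 0.000281) and NZO/HlLtJ lower than CAST/EiJ by -1.40 (SE 0.17, adjusted p = 1.08e-05). Within the first identifier range the CAST/EiJ difference from C57BL/6J was 0.65 (adjusted p = 0.0983), and in the later ranges 1.19 (adjusted p = 5.71e-06). NZO/HlLtJ and C57BL/6J differed by -0.43 (SE 0.17, adjusted p = 0.0674), a difference that was called in the later ranges alone (-0.40, adjusted p = 0.00459), with the identifier range as a block (-0.56, adjusted p = 0.0384), in DESeq2 (-0.43, adjusted p = 0.0328), and without any 1 of the 4 CAST/EiJ libraries at 10% fat (-0.43, adjusted p 0.0411 to 0.0471).

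A second gene lies inside Irs1: Gm9747, on the opposite strand, shares 2822 exonic bases with it. Gm9747 was counted at 4.56 to 11.4 CPM in C57BL/6J, 8.12 to 17.5 CPM in CAST/EiJ and 6.33 to 9.88 CPM in NZO/HlLtJ. Whether the counting used strand is not given in the sources used here, so reads of the 2 genes may not have been told apart, and the part of Gm9747 in the Irs1 values was not tested.

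Irs2 (ENSMUSG00000038894, chromosome 8, 10984681 to 11008458, minus strand), the other docking protein of the heart, was even in C57BL/6J, from 13.5 to 18 CPM with a median of 15, and ran from 7.46 to 21.3 CPM in NZO/HlLtJ with a median of 9.88 (-0.56 against C57BL/6J, SE 0.42, adjusted p = 0.345). CAST/EiJ spread far wider than either. The 4 libraries of the first identifier range held 10.8, 12.2, 13.9 and 11.9 CPM (females and males at 10%, then females and males at 44% fat). The 4 of the later ranges held 83.3, 17.7, 32.4 and 59.7 CPM in the same order, each above all 4 of the first range. Against C57BL/6J, CAST/EiJ differed by 0.84 over all libraries (SE 0.41, adjusted p = 0.0943), by -0.28 within the first range (SE 0.10, adjusted p = 0.0419) and by 1.37 in the later ranges (SE 0.24, adjusted p = 0.00742). The direction thus turned between the ranges. The difference over all libraries was called in DESeq2 (0.85, adjusted p = 0.0495) and without the first CAST/EiJ female at 10% fat (1.05, adjusted p = 0.0144) or the first male at 44% fat (1.03, adjusted p = 0.0331), and was 0.31 without the second female at 10% fat and 0.45 without the second male at 44% fat. NZO/HlLtJ, sampled only in the later ranges, was below CAST/EiJ by -1.40 (SE 0.42, adjusted p = 0.0111), and by -0.87 without the CAST/EiJ female library of 83.3 CPM (adjusted p = 0.0384). It was not called in limma-voom (-1.11, adjusted p = 0.0841), among the 10% fat libraries (-1.54, adjusted p = 0.0506) or among the 44% fat libraries (-1.26, adjusted p = 0.0942). At the 5′ end, Irs2 shares 162 exonic bases with 9530052E02Rik on the opposite strand, which was not analysed here.

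Some other genes moved with Irs2 in these CAST/EiJ libraries, and they were looked at after its values were seen. Pdk4, a kinase that shuts pyruvate out of the citric acid cycle and a FOXO target, held 876, 184, 611 and 665 CPM in the 4 later libraries in the order above, and 118 to 289 CPM in the first 4. Fbxo32, a FOXO target that marks proteins for breakdown in muscle, held 310, 175, 215 and 208 CPM against 139 to 174 CPM. Per2, a repressor of the circadian clock, held 109, 25.2, 48.5 and 62.2 CPM against 11.8 to 21.7 CPM, and Arntl, the clock activator that peaks in opposite phase, 3.76, 22.1, 5.16 and 4.61 CPM against 7.59 to 19.6 CPM. The 3 libraries highest in Irs2 were therefore also the 3 highest of the strain in Pdk4, Fbxo32 and Per2 and the 3 lowest in Arntl. In the same order, the 4 later libraries had 34815442, 30317016, 44393792 and 41571342 total counts, and mitochondrially encoded genes took 20.2%, 21.5%, 21.4% and 23% of them, against 21.8% to 23.4% in the first 4. Pdk4 ran from 813 to 1720 CPM in C57BL/6J, and 7 of the 8 CAST/EiJ libraries lay below that range. The part of the identifier range, or of what moved these genes, in the Irs2 values was not tested. Pdk4 and Fbxo32 belong to a list of 22 FOXO targets, and whether that list as a whole followed Irs2 was not tested. In CAST/EiJ on the control food, some of its members varied little, such as Map1lc3b (199 ± 8.23 CPM) and Sod2 (548 ± 36.7 CPM; SD, n = 4 each). Others varied widely there, such as Txnip (722 ± 414 CPM) and Klf15 (54.5 ± 26.9 CPM).

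**Figure D3:**
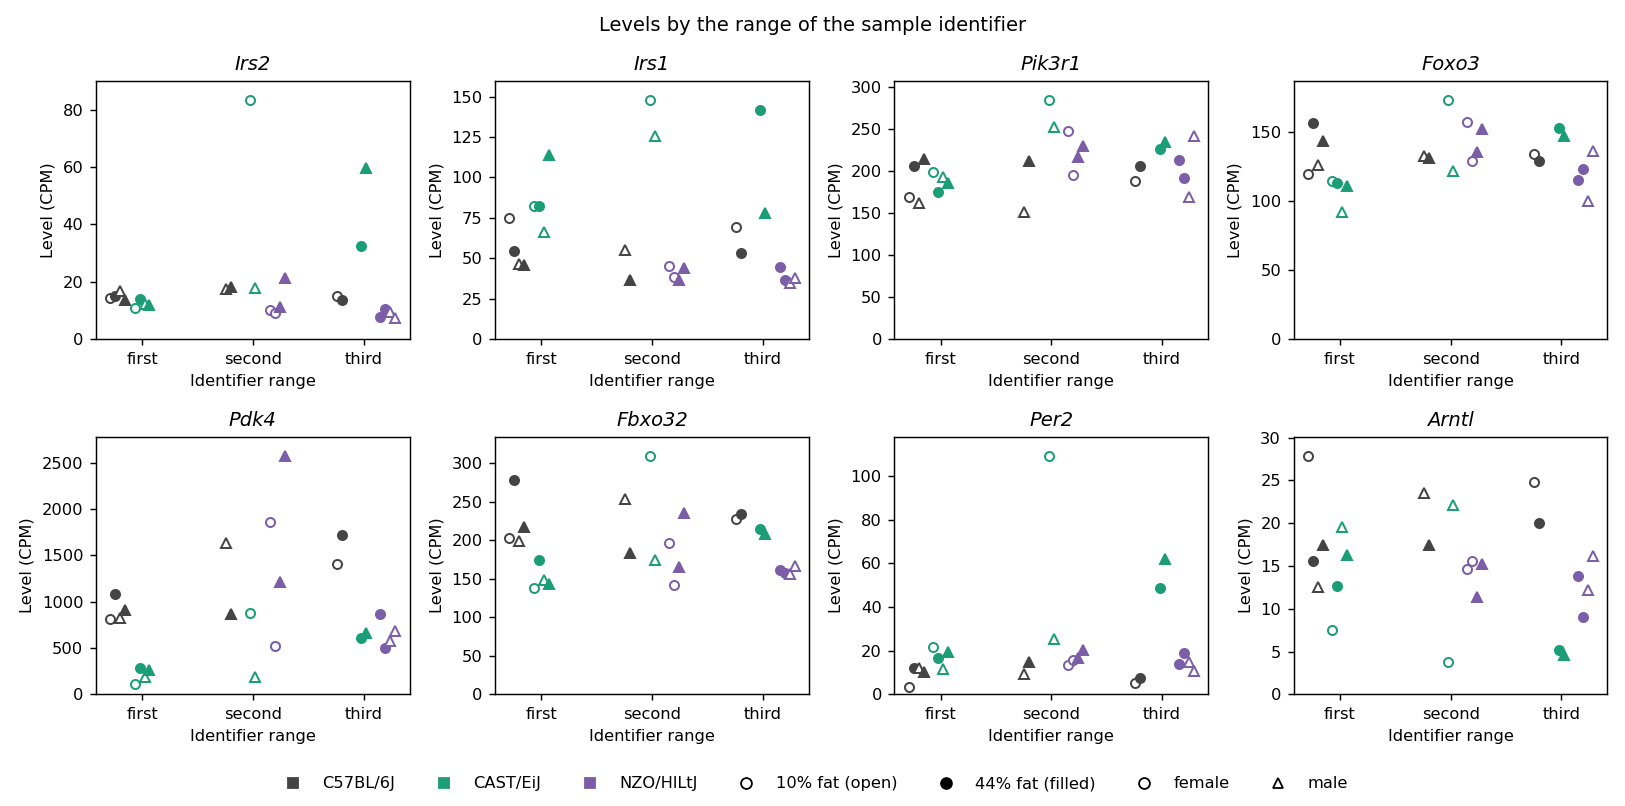
Levels in CPM (vertical axes, linear, starting at 0) of 4 insulin signalling genes (top) and of Pdk4, Fbxo32, Per2 and Arntl (bottom) by identifier range, with strain as colour, open symbols for 10% and filled for 44% fat, circles for females and triangles for males. Irs2 in CAST/EiJ lies at 10.8 to 13.9 CPM in the first range and at 17.7 to 83.3 CPM in the later ones, while C57BL/6J stays between 13.5 and 18 CPM in all ranges.

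Pik3r1 (ENSMUSG00000041417, chromosome 13, 101680563 to 101768217, minus strand) encodes p85 alpha, the subunit that ties PI3-kinase to the docking proteins. Its strain means were 188 ± 24.8 CPM in C57BL/6J, 219 ± 37.3 in CAST/EiJ and 213 ± 26.8 in NZO/HlLtJ (SD, n = 8 each), and none of the 3 differences was called (adjusted p 0.0718 to 0.775). In CAST/EiJ it held 175 to 199 CPM in the first identifier range and 226 to 284 CPM in the later ranges, without overlap. Its difference from C57BL/6J was 0.015 in the first range (adjusted p = 0.904) and 0.40 in the later ranges (adjusted p = 0.0389), against 0.22 over all libraries (adjusted p = 0.0718). It was called also among the 10% fat libraries (0.47, adjusted p = 0.0138), in DESeq2 (0.22, adjusted p = 0.0257), and without any 1 of 6 libraries, the 4 of CAST/EiJ in the first range or either NZO/HlLtJ male at 10% fat (adjusted p 0.0219 to 0.0483).

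Of the AKT kinases, Akt2 separated the strains most cleanly. Akt2 (ENSMUSG00000004056, chromosome 7, 27591552 to 27640826, plus strand), the isoform most tied to insulin-driven glucose uptake, ran from 168 to 190 CPM in C57BL/6J (median 175), from 181 to 198 CPM in CAST/EiJ (median 191) and from 133 to 144 CPM in NZO/HlLtJ (median 142). All NZO/HlLtJ libraries lay below all others. NZO/HlLtJ was lower than C57BL/6J by -0.34 (SE 0.03, adjusted p = 7.11e-09) and lower than CAST/EiJ by -0.45 (SE 0.03, adjusted p = 4.44e-11), and neither call was lost under any alternative fit or without any library. The smaller difference of CAST/EiJ from C57BL/6J, 0.10 (SE 0.03, adjusted p = 0.00243), was not called within the first identifier range (0.10, adjusted p = 0.15) or in the later ones (0.12, adjusted p = 0.0869).

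Akt1 (ENSMUSG00000001729, chromosome 12, 112653821 to 112674884, minus strand), the isoform linked to heart growth, was at 147 ± 13.6 CPM in C57BL/6J, 149 ± 10.1 in CAST/EiJ and 122 ± 8.94 in NZO/HlLtJ (SD, n = 8 each). It ran from 109 to 137 CPM in NZO/HlLtJ, overlapping the lower libraries of both other strains. NZO/HlLtJ was lower by -0.27 against C57BL/6J (SE 0.04, adjusted p = 4.8e-05) and by -0.29 against CAST/EiJ (SE 0.04, adjusted p = 7.24e-06), and both calls held in the later identifier ranges alone. CAST/EiJ and C57BL/6J differed by 0.022 (95% interval -0.07 to 0.11).

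Of the transcription factors that AKT restrains, Foxo1 (ENSMUSG00000044167, chromosome 3, 52268336 to 52353221, plus strand) was at 31.6 ± 2.01 CPM in C57BL/6J, 29.3 ± 1.95 in CAST/EiJ and 37.2 ± 7.55 in NZO/HlLtJ (SD, n = 8 each). Its NZO/HlLtJ values ran from 28.1 to 51.8 CPM and overlapped both other strains. NZO/HlLtJ was higher than CAST/EiJ by 0.33 (SE 0.09, adjusted p = 0.0035), a call that was lost in the later identifier ranges alone (0.37, adjusted p = 0.0937) and among the 10% fat libraries (0.25, adjusted p = 0.111). Against C57BL/6J the difference was 0.22 (SE 0.09, adjusted p = 0.0559). It was called in DESeq2 (adjusted p = 0.0314) and without any 1 of 5 libraries: the second C57BL/6J males at 10% fat, or in NZO/HlLtJ the second females or first males at 10% fat and the second females or first males at 44% fat (0.25 to 0.28, adjusted p 0.0134 to 0.0484). An antisense gene at its 5′ end, Gm20402, was at 0 CPM in the 24 libraries.

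Foxo3 (ENSMUSG00000048756, chromosome 10, 42181841 to 42276755, minus strand) was at 134 ± 11.2, 128 ± 26.8 and 131 ± 18.7 CPM in C57BL/6J, CAST/EiJ and NZO/HlLtJ (SD, n = 8 each), and none of its 3 strain differences was called (adjusted p 0.597 to 0.83). In CAST/EiJ it followed the identifier range, as Irs2 and Pik3r1 did. It held 92.1 to 114 CPM in the first range and 122 to 173 CPM in the later ones, without overlap. The share of all genes apart between these CAST/EiJ libraries is not given here, nor the share called between strains within the ranges. The pattern therefore cannot be called particular to Irs2, Pik3r1 and Foxo3. CAST/EiJ was lower than C57BL/6J by -0.34 in the first range (SE 0.07, adjusted p = 0.00175), while the difference in the later ranges was 0.16 (SE 0.11, adjusted p = 0.257).

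Tbc1d4 (ENSMUSG00000033083, chromosome 14, 101442360 to 101609191, minus strand), also called AS160, holds GLUT4 vesicles inside the cell until AKT phosphorylates it. It ran from 144 to 170 CPM in C57BL/6J (median 148), from 83.8 to 105 CPM in CAST/EiJ (median 89.6) and from 101 to 125 CPM in NZO/HlLtJ (median 109). All C57BL/6J libraries lay above all others, and CAST/EiJ overlapped NZO/HlLtJ. C57BL/6J also stood apart in its share of mitochondrial counts, as given above. The difference from C57BL/6J was -0.73 in CAST/EiJ (SE 0.05, adjusted p = 6.05e-10) and -0.46 in NZO/HlLtJ (SE 0.05, adjusted p = 1.15e-06), and NZO/HlLtJ was above CAST/EiJ by 0.28 (SE 0.05, adjusted p = 0.000156). With the mitochondrially encoded genes left out of the fit, the 3 differences were -0.73, -0.46 and 0.26. All 3 calls were kept under each alternative fit, within each identifier range tested and without each library in turn.

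Diet moved none of the 10 genes past the threshold. Called members numbered 0 of 10 in C57BL/6J, where 0.0407% of all genes were called (7 genes, 0.0349% higher and 0.00581% lower), 0 of 10 in CAST/EiJ and in NZO/HlLtJ, where 0% were called, and 0 of 10 over the strains, where 0.157% were called (27 genes, 0.128% higher and 0.0291% lower). At an unadjusted p under 0.05 stood 3, 0, 2 and 2 of the 10, and 5.62%, 6.61%, 7.17% and 8.81% of all genes. DESeq2 also called 0 of the 10 in each of these 4 comparisons, with 38, 29, 13 and 105 genes called in all. The median log2 change of the 10 was -0.08 in C57BL/6J, 0.012 in CAST/EiJ, 0.07 in NZO/HlLtJ and 0.031 over the strains. For Insr the 95% interval of the change over the strains ran from -0.07 to 0.08, and for Tbc1d4 from -0.05 to 0.13. For Irs2, the widest of the 10, it ran from -0.58 to 0.89. In the later identifier ranges the CAST/EiJ diets fell in different ranges, where diet and range cannot be told apart. Within the first range alone, 0 of the 10 genes were called for diet in CAST/EiJ and 0 in C57BL/6J.

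**Figure D4:**
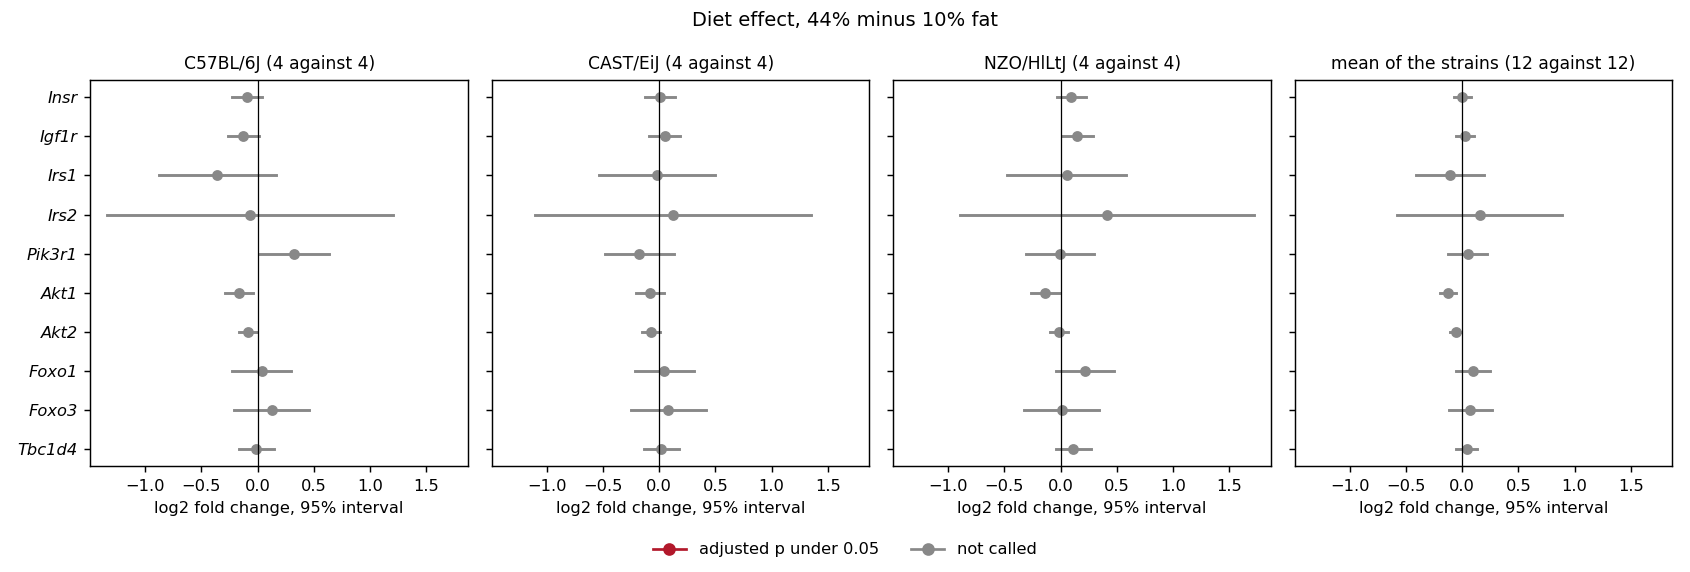
Log2 fold change of each gene at 44% against 10% fat (points) with its 95% interval (lines) in each strain and as the mean of the strains. No gene passed an adjusted p of 0.05, and the points of Akt1 lie below 0 in the 4 panels, at -0.17, -0.08, -0.14 and -0.13.

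Pik3r1 came apart by diet in 1 strain. In C57BL/6J it held 169, 188, 162 and 151 CPM at 10% fat and 205, 206, 214 and 212 CPM at 44% fat (2 females, then 2 males). The groups did not overlap, as for 4.11% of all genes in that comparison. The change was 0.33 (SE 0.14, unadjusted p = 0.038, adjusted p = 0.842), and with only the 8 C57BL/6J libraries in the fit it was called (0.33, SE 0.05, adjusted p = 0.0102). In CAST/EiJ the change was -0.18 (SE 0.14) and in NZO/HlLtJ -0.0050 (SE 0.14), with overlapping groups in both. In NZO/HlLtJ the diets overlapped for all 10 genes and were apart for 3.34% of all genes. The difference between the CAST/EiJ and C57BL/6J diet effects was -0.50 (SE 0.20, unadjusted p = 0.0257, adjusted p = 0.745).

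Akt1 was lower at 44% fat in the mean of each strain. In C57BL/6J it held 153, 154, 158 and 155 CPM at 10% fat and 161, 131, 127 and 134 CPM at 44% fat. The first female library at 44% fat was the highest of the 8, and the other 3 at that diet were the lowest. The change over the strains was -0.13 (SE 0.03, unadjusted p = 0.00124, adjusted p = 0.181), in the fit of 12 libraries against 12. It was called only without that C57BL/6J female library (-0.16, adjusted p = 0.0465), of the 24 left out in turn. Akt2 changed by -0.06 over the strains (SE 0.02, unadjusted p = 0.0144, adjusted p = 0.418). In CAST/EiJ its 4 libraries at 44% fat (181, 187, 191 and 189 CPM) lay below the 4 at 10% fat (198, 191, 198 and 198 CPM) without passing the test (-0.07, SE 0.04, adjusted p = 0.775). Groups without overlap made up 2.78% of all genes in that comparison.

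In NZO/HlLtJ, Igf1r held 43.9, 41, 39.6 and 41.6 CPM at 10% fat and 43.2, 41.7, 47.8 and 51.8 CPM at 44% fat, where the 2 male libraries were the highest. These 2 fell in the second identifier range and the males at 10% fat in the third, with the females the other way round. Within a sex of this strain, diet and range therefore cannot be told apart. The change of Igf1r over both sexes was 0.15 (SE 0.07, unadjusted p = 0.0361, adjusted p = 0.678). It differed from that in C57BL/6J, which was -0.13, by 0.27 (SE 0.09, unadjusted p = 0.008, adjusted p = 0.973). Whether diet acted differently in different strains was tested as well, with a call for 0 of the 10 genes in each of 3 comparisons. In these, 0%, 0.00581% and 0% of all genes were called (1 gene, in NZO/HlLtJ against C57BL/6J). At an unadjusted p under 0.05 stood 1, 2 and 0 of the 10, and 6.53%, 4.75% and 4.64% of all genes. DESeq2 called none of the 10 in these comparisons.

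Males and females did not differ past the threshold in any of the 10 genes, with 0.372% of all genes called. At an unadjusted p under 0.05 stood 0 of the 10 and 8.95% of all genes. Irs1 had the largest sex difference, at 60 ± 30.8 CPM in males and 72.5 ± 37.4 in females (SD, n = 12 each; log2 difference -0.27, SE 0.14, adjusted p = 0.614).

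The other genes of the pathway were read from 5 lists chosen by role. None of their genes passed the test for diet in any strain or over the strains, or for sex, and they are described here by strain. Of 12 ligands and binding proteins, 10 were in the table; Ins1 and Ins2 were not analysed here. In NZO/HlLtJ 6 of the 10 were higher than in C57BL/6J and 0 lower, with a list median of 0.38 against 0 over all genes, of which 17.9% were higher and 17.6% lower. Igf2, a growth factor that also binds the insulin receptor, was at 111 ± 18.7 CPM in NZO/HlLtJ and 45.3 ± 8.25 in C57BL/6J (SD, n = 8 each; 1.29, SE 0.18, adjusted p = 9.08e-05). Igfbp5, a binding protein of these factors, was at 357 ± 60.6 and 231 ± 33.9 CPM (0.62, SE 0.10, adjusted p = 0.000229). These 2 genes are also expressed by fibroblasts, whose summed markers were higher in NZO/HlLtJ as given above; the part of that in these differences was not tested. In CAST/EiJ 2 of the 10, Igfbp6 (-0.59) and Igfbp4 (-0.30), were lower than in C57BL/6J and 0 higher, against 29.7% lower and 29.1% higher over all genes.

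Of 18 adaptors and PI3-kinase genes, 17 were measured; Irs4 was not analysed here. In CAST/EiJ 9 were called higher and 2 lower against C57BL/6J, with a median of 0.12, and in NZO/HlLtJ 6 higher and 2 lower, with a median of 0.11. Over all genes, 29.1% were higher and 29.7% lower in the first comparison and 17.9% and 17.6% in the second. Gab1, a docking protein of several receptors, was lower than in C57BL/6J in both, by -0.34 and -0.24. Pik3cd, the PI3-kinase subunit best known from white blood cells, was higher in CAST/EiJ by 0.74 (7.88 ± 1.53 against 4.65 ± 0.481 CPM, SD, n = 8 each, adjusted p = 1.87e-06). Summed macrophage markers lay at 247 to 315 CPM in CAST/EiJ and 267 to 340 CPM in C57BL/6J. B and plasma cell markers summed to 8.22 to 23.2 and 8.47 to 61.7 CPM, and T and NK cell markers to 0.342 to 1.49 and 1.28 to 3.41 CPM. The part of these cell types in the Pik3cd difference was not tested. Among 19 negative regulators, 8 were higher and 2 lower in CAST/EiJ than in C57BL/6J, and 4 were higher and 3 lower in NZO/HlLtJ, the last 2 counts near the shares over all genes just given. Grb10, an adaptor that inhibits the insulin receptor, was higher in both, at 131 ± 17.8 CPM in CAST/EiJ and 122 ± 9.47 in NZO/HlLtJ against 92.8 ± 4.32 in C57BL/6J (SD, n = 8 each; 0.49, adjusted p = 1.79e-06, and 0.40, adjusted p = 5.47e-05). Enpp1, a membrane pyrophosphatase that binds the receptor, was higher in NZO/HlLtJ by 0.63 (adjusted p = 1.43e-07). Socs2, a feedback inhibitor of cytokine and growth hormone receptors, was lower there by -0.35 (adjusted p = 0.000129).

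**Figure D5:**
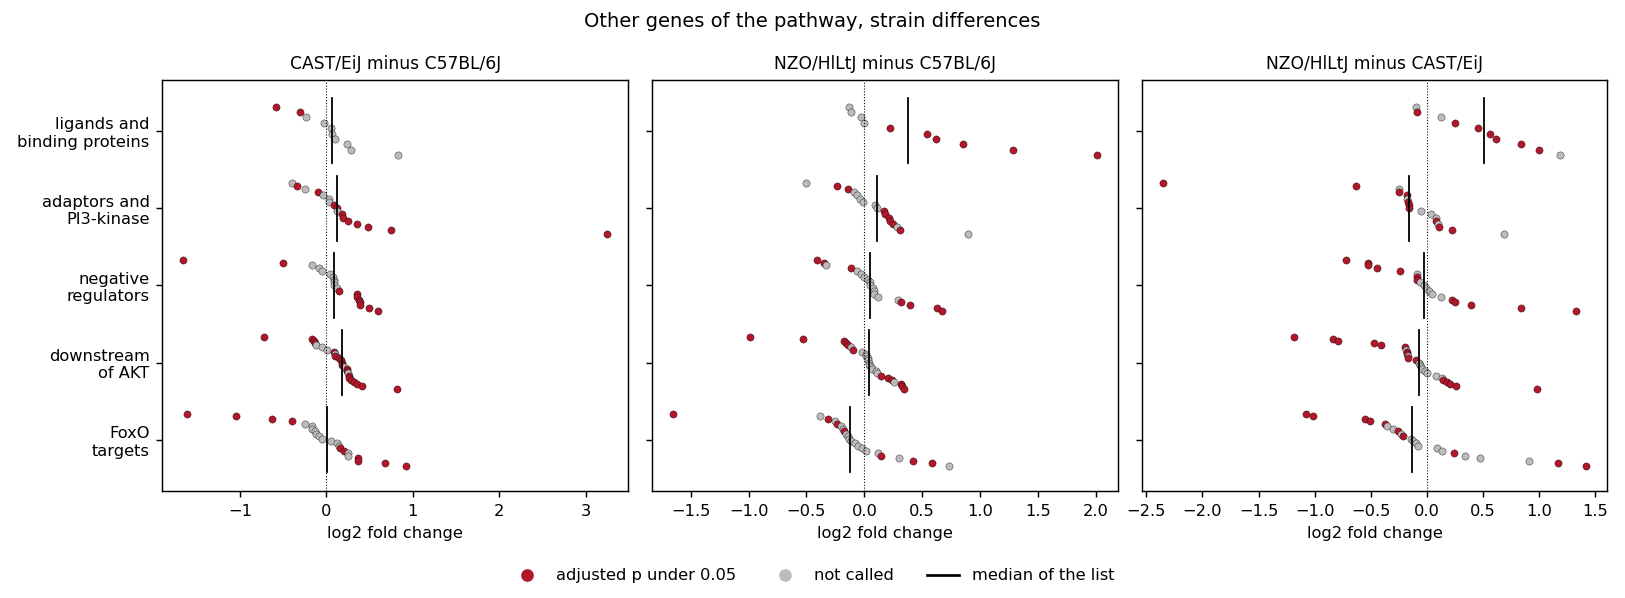
Log2 fold change between strains of each measured gene (points) in 5 lists of other pathway genes, red where the adjusted p was under 0.05, with a bar at the list's median. In NZO/HlLtJ against C57BL/6J the ligands and binding proteins called lie to the right of 0 (median 0.38), and 15 of the 25 genes downstream of AKT are called higher in CAST/EiJ than in C57BL/6J, where 29.1% of all genes were.

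Downstream of AKT, 15 of 25 genes were called higher in CAST/EiJ against C57BL/6J and 4 lower, with a median of 0.18, and in NZO/HlLtJ 6 higher and 6 lower, with a median of 0.036. The shares over all genes were 29.1% higher and 29.7% lower in CAST/EiJ, and 17.9% and 17.6% in NZO/HlLtJ, to which the NZO/HlLtJ counts lie close. Slc2a4, the insulin-regulated glucose transporter GLUT4, was at 360 ± 15.9 CPM in CAST/EiJ and 301 ± 6.1 in C57BL/6J (SD, n = 8 each; 0.26, SE 0.04, adjusted p = 7.39e-06), in the strain where Tbc1d4 was lowest. Tbc1d1, the close relative of Tbc1d4, was lower in CAST/EiJ too, at 21.7 ± 2.35 against 36.2 ± 9 CPM (-0.72, SE 0.16, adjusted p = 0.00143). In NZO/HlLtJ, Gys1, the muscle glycogen synthase, was higher by 0.32 (adjusted p = 1.31e-07). Pfkfb2, the heart enzyme that makes the activator of phosphofructokinase, was lower by -0.53 (adjusted p = 5.72e-05), and Pde3b, the phosphodiesterase by which insulin lowers cyclic AMP, by -0.98 (adjusted p = 0.00128).

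Of 22 FOXO targets, 6 were called higher in CAST/EiJ against C57BL/6J and 4 lower, with a median of 0.002, and in NZO/HlLtJ 3 higher and 4 lower, with a median of -0.12. These counts lie near or below the shares over all genes, 29.1% higher and 29.7% lower in CAST/EiJ and 17.9% and 17.6% in NZO/HlLtJ. Sesn3, a stress-induced inhibitor of mTORC1, was higher in CAST/EiJ by 0.68 (adjusted p = 2.55e-10) and in NZO/HlLtJ by 0.42 (adjusted p = 6.98e-07). Bnip3, a mitophagy receptor, was at 247 ± 34.4 CPM in CAST/EiJ and 130 ± 6.58 in C57BL/6J (SD, n = 8 each; 0.92, adjusted p = 4.21e-08). Nmnat3, an enzyme of NAD synthesis, was lower in both, by -0.63 and -1.65 (adjusted p = 1.5e-07 and 9.71e-13).

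The genes whose log2 CPM followed each member most closely over the 24 libraries are given as a description, without a test, among 12071 genes with a mean of at least 1 CPM. The libraries share strain and identifier range, which alone can align such profiles. Akt2 followed Pcp4l1 (Pearson r 0.974) and Pxmp2 (0.969), Tbc1d4 followed mt-Rnr2 (0.945) and Pvr (0.942), and Irs1 followed Ppm1e (0.939) and Marf1 (0.935). Insr followed Txlnb and Asb14 (0.933 each), and Irs2 followed Phf3 (0.919) and Ubr2 (0.887). For Foxo1 the closest was Zcchc24 (0.895), and for Akt1 Gemin5 (0.887) and Atpif1 (0.881). The weakest partners were those of Pik3r1 (Fam107a, 0.844, and Bcl2l1, 0.821), Igf1r (Diaph2, 0.818, and Ccng2, 0.792) and Foxo3 (Clk1 and Herpud1, 0.809 each).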

How the data were processed

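The deposited values were expected counts (reads shared out between genes by estimation, so that 19.3% were no whole numbers) of 20961 genes in 24 libraries, and a variance-stabilized form that the authors made of them, on a scale close to log2. Per the submitters' processing notes, GRCm38 and DESeq2 were used, in roles and versions not stated; aligner, counting program and use of strand: not given in the sources used here.

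Rounded expected counts entered edgeR 4.0.16 (R 4.3.3). The filterByExpr rule (minimum count 10, minimum total 15) left 17203 genes, and libraries were scaled by TMM. 1 robust quasi-likelihood model with a mean per group of strain, sex and diet was fitted to the 24 libraries, contrasts weighted groups equally, and p-values were Benjamini-Hochberg adjusted over all genes tested, with a threshold of 0.05. SE is the absolute log2 fold change divided by the square root of F. Intervals are at 95%. CPM per kilobase used the merged exon length in GENCODE M21. The model was also run on simulated counts with known changes, and the outcome is not reported here. The changes set there were larger than the diet changes of the 10 genes. No pair of replicate libraries looked like 1 library deposited again (chi-square per degree of freedom 11.6 to 68.4).

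The 10 genes, the pathway lists and the tests were chosen with earlier results of these data known. All 10 genes were described. From each list the called genes with the 2 smallest adjusted p in each direction could be named, and for each member the 2 genes closest by Pearson r. Some genes that this rule names are not reported here. Pdk4, Fbxo32, Per2, Arntl and the overlapping genes were chosen after values were seen. Promoter sequences are RefSeq's on GRCm38.p6, where Insr had no entry. Alternatives were RLE scaling, no low-count filter, mitochondrially encoded genes left out, the identifier range as a block, limma 3.58.1 on voom weights or on the deposited log2-like values, DESeq2 1.42.0, subsets of libraries by strain, diet, sex or identifier range, and each library left out in turn. The strain differences within identifier ranges were chosen after seeing the data. Within the first range each group held 1 library, so a model with a mean per group leaves no spread to test against. The SE, p-values and calls given for that range therefore need a model with fewer terms. Its terms are not given here, and libraries of different sex or diet stand in for replicates in it.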

Additional observations from a re-analysis of the deposited data

Results flagged for a closer look

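Of 90 checks for a single library far from the rest of its group of 4 or 8, 4 were met, and chance alone meets about 1 in 20. Irs2 in CAST/EiJ at 10% fat was 83.3 CPM in the second female library, with the nearest of the other 3 at 17.7 CPM. In the same library Akt1 (142 CPM, nearest 155) and Akt2 (191 CPM, nearest 198) were the lowest of their group. Irs2 in NZO/HlLtJ was 21.3 CPM in the second male library at 44% fat, with the nearest of the other 7 at 11 CPM.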

How the results depend on the processing

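No paired analysis was possible because the labels carry no replicate numbers, and those used here were given in accession order. Of 1000 values of the fold changes under other settings, 974 stayed on their side of the threshold, 13 lost a call, 11 gained one and 2 turned: Irs2 in CAST/EiJ against C57BL/6J within the first identifier range (-0.28) and Igf1r in NZO/HlLtJ against C57BL/6J at 44% fat (0.0095). A further 46 uncalled values changed sign. Leaving out 1 library lost 15 calls and gained 18 in 2640 values and turned none that was called. Members called for diet in C57BL/6J went from 0 to 1 with only that strain's libraries, and for NZO/HlLtJ against C57BL/6J from 5 to 3 at 44% fat and to between 3 and 6 without 1 library; over the strains diet called 0 to 1 members without 1 library. The count of all genes called for diet depended more on the setting. In C57BL/6J it was 7, and 38 in DESeq2, 36 with only that strain's libraries, 2 in the first identifier range and 1 to 20 without 1 library. In CAST/EiJ it was 0, and 4 with the identifier range as a block, 4 on the deposited values, 29 in DESeq2, 42 in the first range and 0 to 18 without 1 library (18 without the second male at 10% fat). In NZO/HlLtJ it was 0, and 2 on the deposited values, 13 in DESeq2 and 0 to 113 without 1 library. Over the strains it was 27, and 17 with the block, 105 in DESeq2 and 4 to 143 without 1 library. The highest counts of 20, 113 and 143 came without the first NZO/HlLtJ male library at 44% fat. The differences of the diet effect gave, for CAST/EiJ against C57BL/6J, 0 genes, 1 with RLE scaling, 1 without mitochondrially encoded genes, 4 with the block, 9 in DESeq2 and 0 to 8 without 1 library; for NZO/HlLtJ against C57BL/6J 1, 2 on the deposited values, 4 in DESeq2 and 0 to 3; and for NZO/HlLtJ against CAST/EiJ 0, 3 in DESeq2 and 0 to 4. The sex difference called 64 genes, 137 in DESeq2 and 39 to 78 without 1 library. NZO/HlLtJ against C57BL/6J called 6108 genes, 3693 at 10% and 3875 at 44% fat, where fewer libraries were compared. The cause of the other shifts was not tested. With 2 libraries a group, the precision for diet is limited, as the intervals given show.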
